A study of Mus musculus with 40 samples.

Results

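The response of brown adipose tissue to thyroid hormone was measured in mice whose Notch ligands Jag1 and Jag2 had been blocked with antibodies. The comparison uses 10 of the 40 mice of the series, selected by their sample titles: 5 mice given anti-Jag1 and anti-Jag2 with thyroxine (T4) and triiodothyronine (T3), and 5 given the same antibodies without hormone, all collected at 7 days. Bulk RNA sequencing read all cells of the tissue together, so fewer cells of a type and less RNA per cell cannot be told apart. All 10 were male C57BL/6 mice without a genetic change, 10 to 12 weeks old in the series text and 10 to 14 weeks in the sample text. Each received 1 intraperitoneal dose of anti-Jag1 and anti-Jag2, at 20 mg per kg each. The hormone mice also received T4 at 1 ug per g and T3 at 0.05 ug per g of body weight every day from day 2. The same hormone was given after an isotype antibody against ragweed at 40 mg per kg, and 5 such mice with and 5 without hormone served for comparison. The antibodies act on the whole animal and not on 1 tissue, and the hormone was given from outside. The labels number the mice 6 to 10 in both Jag antibody groups. They do not say that mice with the same number were related or handled together.

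Thyroid hormone acts mainly through the nuclear receptors encoded by Thra and Thrb, which bind DNA together with retinoid X receptors and switch target genes on when T3 is bound. Brown fat makes its own T3 from T4 with the deiodinase encoded by Dio2, and thyroid hormone works there together with noradrenaline, which acts on beta-adrenergic receptors, to raise fat breakdown and heat production through the uncoupling protein Ucp1. Jag1 and Jag2 are membrane ligands that activate Notch receptors on neighbouring cells, and the title of the series places the study in Notch signalling of the thyroid gland.

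The deposited counts ranged from 16905015 to 29925942 per mouse in these 10 libraries. Pairs of mice within the same group correlated at 0.876 to 0.981 (Pearson's r of log2 CPM, each count relative to its library's scaled total, across genes, which are not independent replicates). All 8 adipocyte markers were detected in every library. The libraries also held very unequal amounts of skeletal muscle RNA: the summed level of 8 muscle genes ran from 13.9 to 51059 CPM without hormone and from 4.3 to 5019 with it. The mean log2 level of the list was 3.15 ± 4.28 with hormone and 4.77 ± 4.72 without (SD, difference -1.62, exact permutation test, two-sided, p = 0.587, n = 5 per group). This spread is too wide to show that the groups held equal amounts of muscle RNA. All 8 genes had a negative log2 fold change (median -3.60). The libraries also differed in how their values moved with transcript length. The slope of log2 CPM on log2 length was 0.117 ± 0.0627 (SD, n = 5) with hormone and -0.0601 ± 0.0764 (SD, n = 5) without it, with no overlap (exact permutation test, two-sided, p = 0.00794, adjusted p = 0.0397 over 5 library measures). Whether muscle RNA or the length slope is the cause of any single result was not tested. All genes were refitted with muscle RNA as a covariate and with a correction for length and GC content. The contrast under the Jag antibodies was also fitted without the 4 mice that held most muscle RNA. That fit leaves 3 mice against 3, so a call lost there cannot be told apart from one lost to fewer mice.

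Under the Jag antibodies, the hormone changed 1622 of 17079 tested genes, which is 9.5% (edgeR's quasi-likelihood test, Benjamini-Hochberg adjusted p under 0.05, here named called). Of these, 732 rose (4.29% of the genes tested) and 890 fell (5.21%). Counts of called genes in every list below are to be read against these shares. The lists were chosen with earlier results of these data known, so their counts are not independent support. The median log2 fold change was 1.16 among the genes that rose and -0.97 among those that fell, against -0.04 over all genes. In 476 of the genes that rose and 585 of those that fell, no hormone mouse overlapped any mouse without hormone. Among all 17079 tested genes, called or not, the groups did not overlap in 2058 (12%). Lack of overlap was part of the rule that named the genes of largest change, so for them it is no further support. Among the gene lists described in turn, 23 of 26 genes of mitosis and 19 of 27 of the extracellular matrix rose, 8 of 16 of fat storage and breakdown fell, and 1 of 22 of brown fat identity and 1 of 40 of the respiratory chain were called. The number of called genes moved with the model, as listed in the closing section. With limma on log2(FPKM + 1) the balance tilted from 732 higher and 890 lower to 717 higher and 502 lower.

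**Figure D1:**
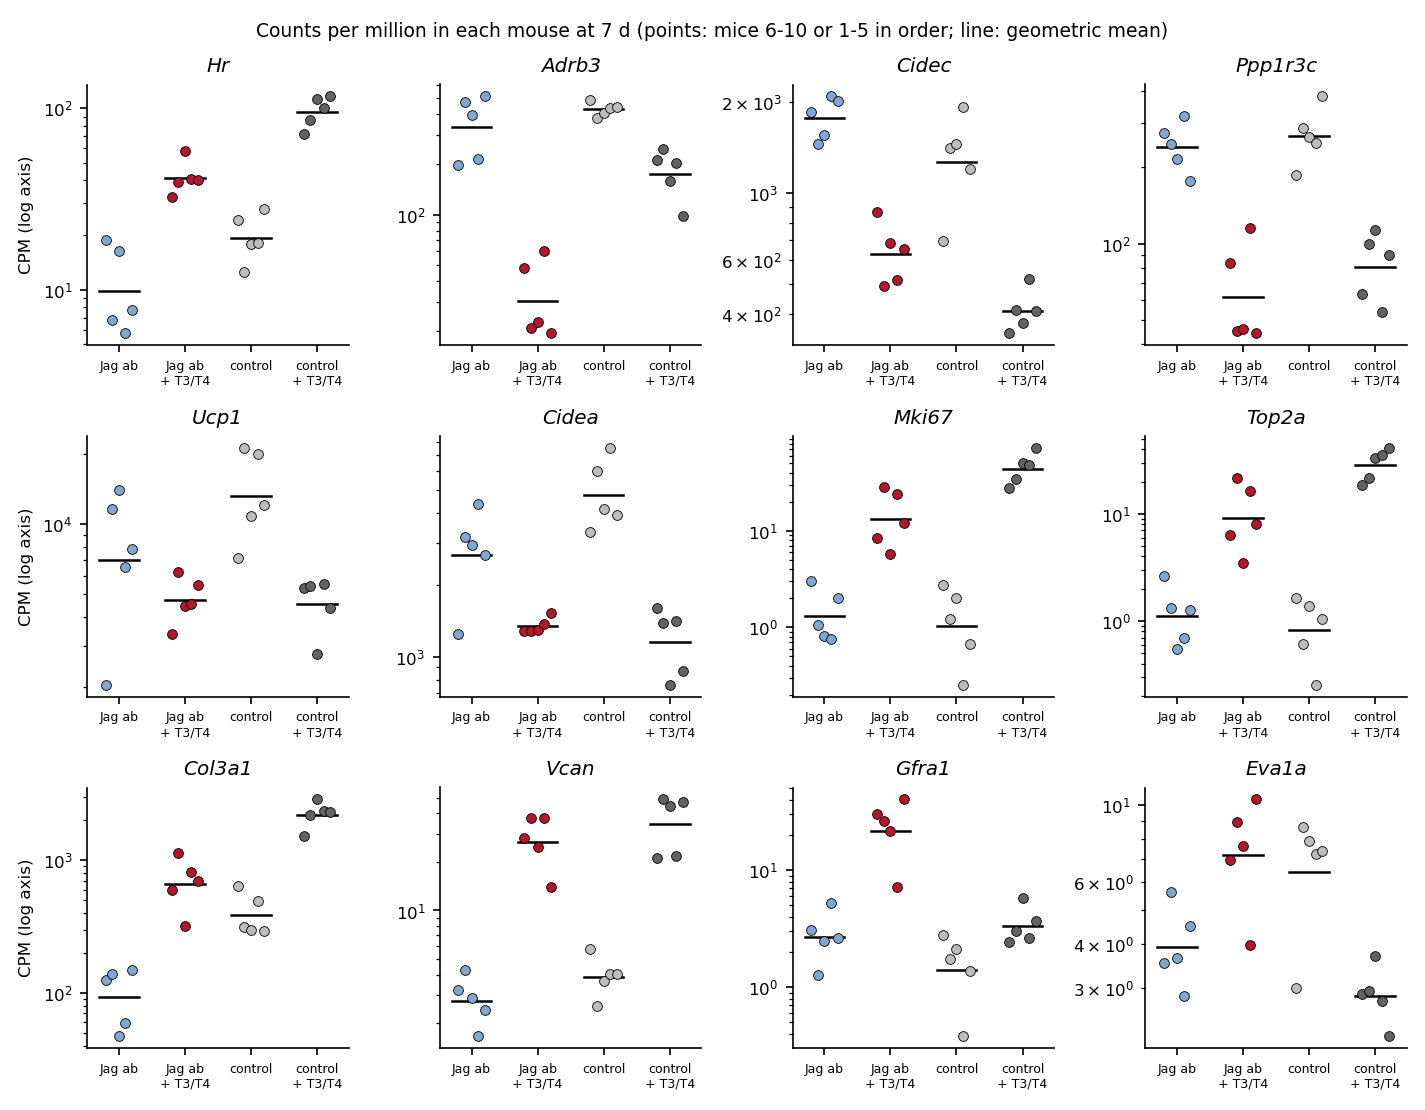
Level of 12 genes in single mice, as CPM on a log axis, in the 4 groups at 7 days (5 mice each, 1 point per mouse, line at the geometric mean). Hr, Mki67, Top2a, Col3a1, Vcan and Gfra1 are higher in every hormone mouse than in every mouse without hormone under the Jag antibodies, Adrb3, Cidec and Ppp1r3c are lower in every hormone mouse, and Ucp1 and Cidea overlap.

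Hr, a corepressor gene that thyroid hormone receptors switch on in many tissues, serves as a check of the labels. Hr (ENSMUSG00000022096, chr14:70552212-70573548 in GRCm38) stood at 18.7, 6.79, 16.3, 5.73 and 7.71 CPM in mice 6 to 10 without hormone and at 32.3, 39.2, 57.9, 40.7 and 40.2 CPM in hormone mice 6 to 10. Every hormone mouse was above every mouse without hormone. The gene rose 3.79-fold (log2 fold change 1.92, SE 0.29, adjusted p = 5.83e-05, edgeR's quasi-likelihood test), and it stayed called in all 11 alternative fits and with any 1 of the 10 mice left out. Of the 13 tested genes in a list of known thyroid hormone targets, Hr was the 1 that was called (9.5% of all genes were), and the median log2 fold change of the list was -0.03.

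Klf9, a transcription factor that T3 induces in several tissues, was at 99.4, 70.3, 175, 72.1 and 78.5 CPM without hormone and at 204, 186, 187, 173 and 194 CPM with it. The hormone mice lay close together, and mouse 8 without hormone, at 175 CPM, reached into their range. The log2 fold change of 0.93 (SE 0.33) missed the threshold (adjusted p = 0.0694). Klf9 passed it with DESeq2 (adjusted p = 0.0356), with limma (0.0293), with only the 2 groups compared (0.0204), with the 4 groups at 7 days (0.0133) and without mouse 8 of the no-hormone group (0.0206). Other known targets also were not called: Thrsp, a regulator of fat synthesis, had a log2 fold change of -0.52 (95% interval -1.58 to 0.55), Ppargc1a, a coactivator of mitochondrial genes, 0.23 (-0.49 to 0.96), and Dio2 -0.13 (-1.42 to 1.16). The interval of Dio2 was wide enough to hold a change of the size seen for Klf9 in either direction.

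Of 10 genes for receptors, their partners and coregulators, 2 fell and none rose, while 2 rose and none fell with only the 2 groups compared, and 1 rose and 1 fell with the 4 groups at 7 days. Thra fell by 0.68 on the log2 scale (SE 0.21, adjusted p = 0.033, edgeR's quasi-likelihood test), from 72.1, 125, 166, 79.7 and 122 CPM to 62.5, 61.2, 65.0, 67.9 and 95.5 CPM. Hormone mouse 10 stood apart from the other 4 and overlapped the mice without hormone. Rxra, the main retinoid X receptor partner, fell by 0.56 (SE 0.17, adjusted p = 0.0322). Each of these calls was lost in 5 of 11 alternative fits and in 7 of 10 fits with 1 mouse left out, and the exons of Thra overlap those of Nr1d1 on the other strand over 5.7% of their bases, so reads there cannot be assigned without strand. Thrb, the second receptor, had a log2 fold change of 0.47 (95% interval -0.20 to 1.13). None of the 7 tested genes for hormone transport and deiodination was called.

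Adrb3, the beta-adrenergic receptor through which noradrenaline mainly acts on rodent adipocytes, fell in every comparison of a hormone mouse with a mouse without hormone. Adrb3 (ENSMUSG00000031489, chr8:27225776-27250616) stood at 199, 475, 395, 216 and 512 CPM without hormone and at 47.5, 20.9, 22.5, 60.3 and 19.3 CPM with it. The highest hormone mouse, at 60.3 CPM, was well below the lowest mouse without hormone. The mean went from 359 ± 145 to 34.1 ± 18.7 CPM (SD, n = 5 each), and the fitted change was 10.5-fold lower (log2 -3.40, SE 0.39, adjusted p = 1.49e-06, edgeR's quasi-likelihood test). Crem, a transcription factor that answers cyclic AMP, fell by 0.68 (SE 0.14, adjusted p = 0.00232). Among 23 tested genes for adrenergic and cyclic AMP signalling, 2 fell and 1 rose, and their median log2 fold change was -0.01. Of the exonic bases of Adrb3, 24.9% overlap Gm45470 on the other strand.

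The genes that define brown fat mostly were not called. Of 22 tested identity genes, 1 fell, none rose and the median log2 fold change was -0.18. Ucp1, the protein that lets brown fat turn fuel into heat, was at 2044, 11602, 14051, 6577 and 7828 CPM without hormone and at 3391, 6249, 4457, 4559 and 5500.0 CPM with it. Mouse 6 without hormone, the mouse richest in muscle RNA, was the lowest of all 10, and the groups overlapped. Its log2 fold change was -0.80 (95% interval -1.63 to 0.03, adjusted p = 0.2, edgeR's quasi-likelihood test). Cidea, a lipid droplet protein of brown adipocytes, went from 1241, 3181, 2938, 4358 and 2675 CPM to 1287, 1285, 1299, 1367 and 1522 CPM, where mouse 6 without hormone was below all hormone mice and the other 4 were above them (log2 -1.09, SE 0.37, adjusted p = 0.0537). Elovl3, an elongase of very long fatty acids that brown fat makes in the cold, was the identity gene that fell: 107, 216, 163, 327 and 116 CPM became 26.2, 28.3, 31.5, 42.3 and 7.16 CPM (log2 -2.78, SE 0.85, adjusted p = 0.0335). The Elovl3 groups did not overlap, but its call was lost in 7 of 10 fits with 1 mouse left out, in the fit without a filter on low counts (adjusted p = 0.0779) and without the 4 mice rich in muscle RNA (adjusted p = 0.241).

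Genes of fat storage and breakdown fell in part, and none rose. Of 16 tested genes for triglyceride synthesis, the lipid droplet and lipolysis, 8 fell, against 5.21% of all genes that fell, with a median log2 fold change of -0.58. The 8 were Cidec, Mogat1, Dgat1, Abhd5, Mgll, G0s2, Plin2 and Agpat2. Cidec, which makes lipid droplets fuse and grow (ENSMUSG00000030278, chr6:113424634-113435760), stood at 1858, 1453, 1559.6, 2092 and 2016 CPM without hormone and at 868, 494, 682, 516 and 656 CPM with it. All hormone mice were below all others (log2 -1.48, SE 0.25, adjusted p = 0.000188, edgeR's quasi-likelihood test). Dgat1, which makes the last step of triglyceride synthesis, went from 216, 343, 394, 347 and 374 CPM to 191, 180.2, 199, 185 and 182 CPM (log2 -0.84, SE 0.21, adjusted p = 0.0102). Agpat2, an earlier enzyme of the same path, fell (adjusted p = 0.0258), and G0s2, an inhibitor of the lipase encoded by Pnpla2, fell by 1.55 (SE 0.42, adjusted p = 0.0179). Of the lipases, Pnpla2 had 0.21 (adjusted p = 0.602) and Lipe -0.27 (adjusted p = 0.429). The count of 8 became 5 without mouse 7 of the no-hormone group and 3 without the 4 mice rich in muscle RNA. It stayed at 8 with muscle RNA as a covariate.

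Adipokines and fatty acid uptake genes held single falls of the same kind. Adipoq, the adipocyte hormone adiponectin, went from 2144, 2017, 1627, 3159 and 2352 CPM to 1107, 978, 753, 790.1 and 1157 CPM (log2 -1.24, SE 0.25, adjusted p = 0.00137, edgeR's quasi-likelihood test). Cfd, the adipocyte protease also known as adipsin, went from 8972, 3369, 2105, 5843 and 6789 CPM to 1926, 737, 764, 627 and 1014 CPM (log2 -2.42, SE 0.50, adjusted p = 0.0018). Neither gene had overlapping groups. Slc27a1, a fatty acid transporter, fell 2.29-fold (adjusted p = 0.00235), and Angptl8, which steers lipoprotein lipase, fell by 1.90 on the log2 scale (SE 0.55, adjusted p = 0.0258). These last genes were the 2 called among 15 tested for lipid uptake, and Adipoq, Cfd and Rarres2 the 3 called among 17 tested secreted factors. Of all genes, 9.5% were called. Of the exonic bases of Rarres2, 33.6% overlap a gene on the other strand. Adipoq and Cidec were also the 2 called among the 8 adipocyte markers. All 8 markers had a negative log2 fold change, with a median of -0.78, and their summed level ran from 18530.1 to 41674 CPM without hormone and from 16529 to 22295 CPM with it. Adipoq lost its call without the 4 mice rich in muscle RNA (adjusted p = 0.051).

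Fatty acid synthesis moved in both directions. Scd1, which puts the first double bond into fatty acids, rose from 5911, 22226, 3432, 18985 and 7902 CPM to 21355, 26504, 40225, 66703 and 15852 CPM, with overlapping groups (log2 1.55, SE 0.46, adjusted p = 0.0297, edgeR's quasi-likelihood test). Srebf1, the transcription factor of fat synthesis, fell by 1.12 (SE 0.32, adjusted p = 0.0224), and Slc25a1, the carrier that exports citrate from mitochondria, fell by 1.74 (SE 0.49, adjusted p = 0.0209). The other 12 of 15 tested genes were not called. All 3 of these calls were lost when only the 2 groups compared were fitted or when the mice rich in muscle RNA were left out. All 3 held with muscle RNA as a covariate. In the cholesterol list 3 of 19 fell (5.21% of all genes did), led by Insig1, a sterol sensor (log2 -1.62, SE 0.40, adjusted p = 0.00833).

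Among 20 tested genes of fatty acid oxidation, 3 fell, against 5.21% of all genes that fell, and none rose. Acot2, a mitochondrial thioesterase, fell by 1.10 on the log2 scale (SE 0.28, adjusted p = 0.0109, edgeR's quasi-likelihood test), and Acadm, the dehydrogenase of medium-chain fatty acids, fell by 0.76 (SE 0.24, adjusted p = 0.0419). The Acadm call was lost in 8 of 10 fits with 1 mouse left out and in 3 of 11 alternative fits. The median of the list was -0.46 and 19 of its 20 genes were below zero. With 1 mouse left out the number of its genes that fell ran from 1 to 7.

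Of 26 tested genes for glucose use, 3 fell (5.21% of all genes did) and none rose, with a median log2 fold change of -0.31. Ppp1r3c, which targets a phosphatase to glycogen, went from 274, 248, 216, 319 and 176 CPM to 84.1, 45.0, 46.0, 116 and 44.1 CPM. The groups did not overlap (log2 -1.88, SE 0.26, adjusted p = 1.36e-05, edgeR's quasi-likelihood test). Gys2, a glycogen synthase, fell by 1.53 (SE 0.39, adjusted p = 0.0121), and Ldha, a subunit of lactate dehydrogenase, fell by 0.98 (SE 0.25, adjusted p = 0.0126). No gene of the creatine cycle, an alternative route of heat production, was called among 6 tested.

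Of the 40 nuclear genes for subunits of the respiratory chain, 1 was called: Cycs, cytochrome c, fell by 0.92 (SE 0.27, adjusted p = 0.0249, edgeR's quasi-likelihood test). The median of the list was -0.47, with 38 of 40 genes below zero, against -0.04 over all genes. With the length and GC offsets this median was -0.20, and 2 genes fell. The Cycs call was lost in 5 of 10 fits with 1 mouse left out, without a filter (adjusted p = 0.056) and without the mice rich in muscle RNA (adjusted p = 0.141). The summed level of the 40 genes was 28302 to 62998 CPM without hormone and 33740.3 to 46316 CPM with it, so the hormone mice lay inside the range of the others. None of the 13 genes of the mitochondrial genome was called, and the share of all counts from that genome was 16.4% ± 1.06 with hormone and 17.2% ± 3.77 without (SD, n = 5 each, exact permutation test, two-sided, p = 0.619).

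**Figure D2:**
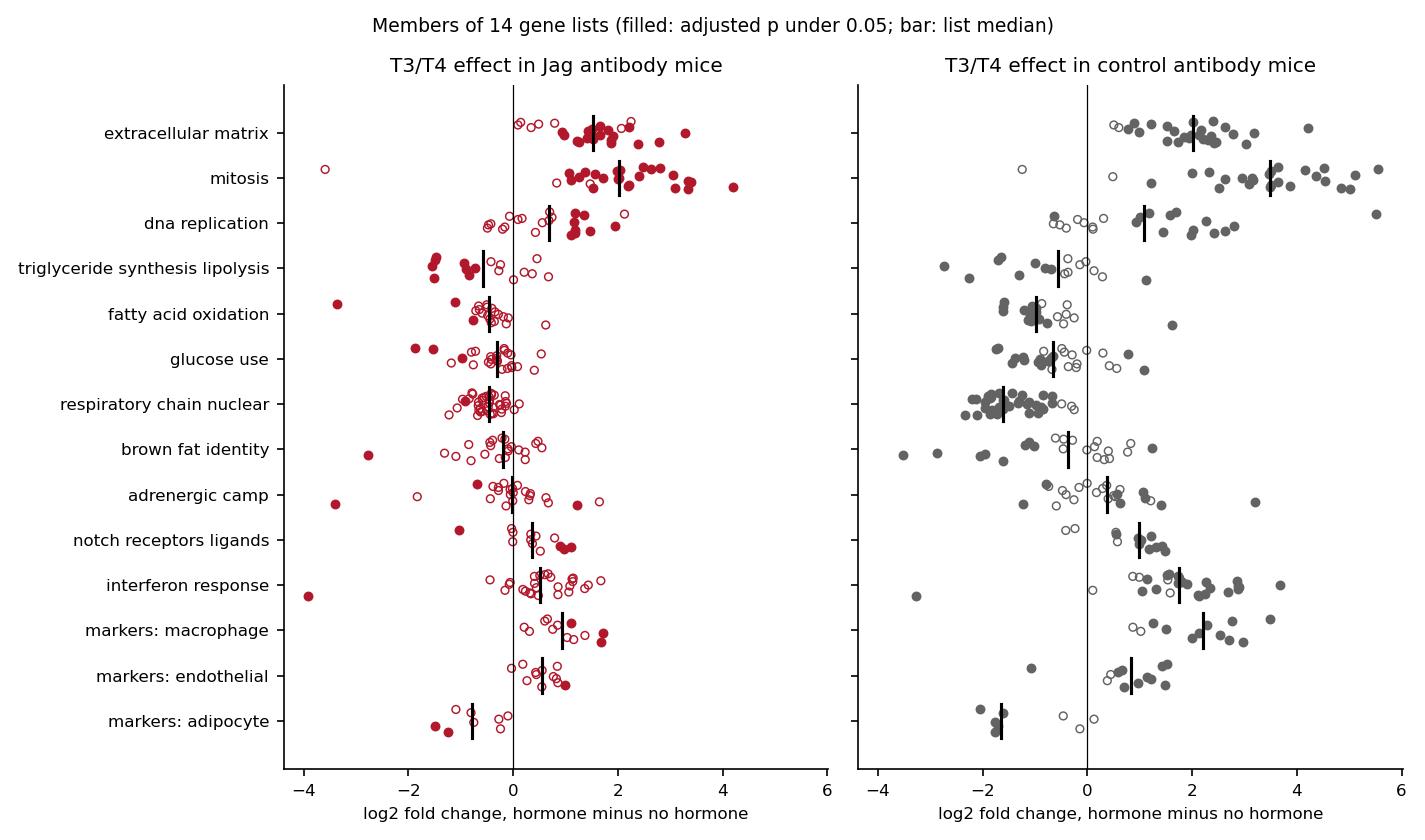
Log2 fold changes of the members of 14 gene lists, hormone minus no hormone, under the Jag antibodies (left, red) and under the control antibody (right, grey). Each point is a gene, filled points have an adjusted p under 0.05, and bars mark medians. Under the Jag antibodies the mitosis list has its median at 2.03 and the extracellular matrix list at 1.53, while the nuclear respiratory chain list has its median at -0.47 with 1 filled point.

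Most genes of the mitosis list and some of the DNA replication list rose. Of 26 tested genes of mitosis, 23 rose and none fell, against 4.29% of all genes that rose, and the median log2 fold change was 2.03. In 8 of the 26 the groups did not overlap (12% of all genes did not). Of 22 genes of DNA replication, 8 rose and none fell, with a median of 0.69. Promoters of mitotic genes are known for 2 short elements, the CCAAT box bound by the factor NF-Y and the cell cycle homology region bound by the MuvB complexes that keep these genes silent in resting cells. The 150 bases before the start of the 4 members with the lowest adjusted p that have an entry in the RefSeq table are shown for this reason, with the motifs TTTGAA and CCAAT on either strand in capitals (RefSeq, GRCm38.p6, all 4 on the minus strand). They are chr11:99024190-99024339 for Top2a, chr7:135716380-135716529 for Mki67, chr2:127831860-127832009 for Bub1 and chr1:189688087-189688236 for Cenpf.
Top2a: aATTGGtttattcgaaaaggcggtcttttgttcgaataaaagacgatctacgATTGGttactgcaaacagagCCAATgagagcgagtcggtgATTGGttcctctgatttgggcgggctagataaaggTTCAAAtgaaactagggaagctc
Mki67: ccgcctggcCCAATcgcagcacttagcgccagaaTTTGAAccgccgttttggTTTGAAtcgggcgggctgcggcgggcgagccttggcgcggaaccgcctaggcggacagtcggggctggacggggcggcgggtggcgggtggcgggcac
Bub1: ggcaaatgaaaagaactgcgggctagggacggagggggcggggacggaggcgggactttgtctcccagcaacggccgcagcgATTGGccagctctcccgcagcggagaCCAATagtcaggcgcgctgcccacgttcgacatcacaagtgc
Cenpf: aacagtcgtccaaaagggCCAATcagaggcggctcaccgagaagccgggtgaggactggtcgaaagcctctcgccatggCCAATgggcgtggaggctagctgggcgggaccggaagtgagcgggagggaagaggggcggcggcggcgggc
Top2a has 1 TTTGAA and 4 CCAAT matches in these bases, Mki67 has 2 and 1, and Bub1 and Cenpf have 2 CCAAT matches each. In the 250 bases before the start, CCAAT was found in 16 of the 19 promoters (84.2%) of the 18 risen mitosis genes with an entry, and in 33.8% of 32851 promoters of all genes. TTTGAA was found in 7 of the 19 (36.8%), and in 16% of all. Over the whole mitosis list, called or not, CCAAT was in 19 of 22 promoters (86.4%) and TTTGAA in 8 of 22 (36.4%). These shares therefore do not set the risen genes apart from the rest of the list. The thyroid hormone receptor half-site AGGTCA was found in 1 of the 19 (5.26%), in 1 of 11 promoters of the thyroid target list (9.09%) and in 14% of all. No TTTGAA match overlaps a CCAAT match in the sequences shown, and a match is one of letters only.

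Top2a, the topoisomerase that untangles chromosomes before they part (ENSMUSG00000020914, chr11:98992943-99024189), was at 2.63, 1.34, 0.553, 0.69 and 1.26 CPM without hormone and at 6.38, 21.4, 3.49, 16.5 and 7.99 CPM with it. Mki67, which coats mitotic chromosomes and marks dividing cells (ENSMUSG00000031004, chr7:135689784-135716361), was at 3.02, 1.06, 0.811, 0.759 and 2.04 CPM without hormone and at 8.4, 28.8, 5.82, 23.9 and 12.0 CPM with it. Both were higher in every hormone mouse, and hormone mice 7 and 9 were the highest for both. Top2a rose 8.56-fold (log2 3.10, SE 0.47, adjusted p = 5.85e-05) and Mki67 10.2-fold (log2 3.35, SE 0.52, adjusted p = 7.88e-05, edgeR's quasi-likelihood test), and both calls held in all 11 alternative fits. The checkpoint kinase gene Bub1 (log2 3.34, adjusted p = 0.000711), the kinetochore gene Cenpf (3.06, adjusted p = 0.000976) and Foxm1, the transcription factor of mitotic genes (2.48), were called too. Rrm2, the subunit of ribonucleotide reductase that limits DNA synthesis, went from 1.98, 1.28, 0.811, 1.24 and 1.16 CPM to 3.87, 8.93, 2.17, 5.53 and 4.52 CPM (log2 1.95, adjusted p = 0.000607). Uhrf1, which carries DNA methylation through replication, showed little spread among the mice: 0.818, 2.17, 1.33, 2.9 and 1.89 CPM became 10.6, 8.28, 8.09, 8.8 and 14.9 CPM (log2 2.48, SE 0.33, adjusted p = 9.73e-06).

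The mitosis genes not called were Plk1 (log2 1.47, adjusted p = 0.0578), Aurka (0.83, adjusted p = 0.195) and Ube2c, which was the 1 member below zero (-3.59, SE 1.90, adjusted p = 0.22). The summed level of the list was 43.6 to 201 CPM in hormone mice and 21.7 to 534 CPM without hormone, so the highest sum was in a mouse without hormone. Ube2c ranged from 26 to 11600 counts over the 10 libraries compared, so a sum over the list can rest largely on this 1 gene. The mean log2 CPM of the list in hormone mice 6 to 10 was 0.78, 2.55, 0.21, 1.97 and 1.11. Without hormone it was 0.39, -0.43, -0.89, -0.75 and -0.29, so mouse 6 without hormone was above hormone mouse 8. The count of 23 became 15 without hormone mouse 7, and 10 both without the 4 mice rich in muscle RNA and with limma on log2(FPKM + 1), a scale on which changes of low genes shrink. For DNA replication the count of 8 became 4 without hormone mouse 7 and 1 without the 4 mice rich in muscle RNA. With muscle RNA as a covariate, which keeps all mice, the counts stayed at 23 and 8. Among 11 tested brakes of the cell cycle, Cdkn2b, an inhibitor of the kinases that start the cycle, fell from 1.81, 3.06, 1.55, 2.83 and 1.74 CPM to 0.763, 0.647, 0.793, 0.366 and 0.496 CPM (log2 -1.83, SE 0.37, adjusted p = 0.0014, edgeR's quasi-likelihood test), and Btg1, an antiproliferative factor, fell by 0.78 (adjusted p = 0.0235).

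Most genes of the extracellular matrix list rose. Of 27 tested, 19 rose and none fell, against 4.29% of all genes that rose. All 27 log2 fold changes were above zero, the median was 1.53, and in 19 the groups did not overlap (12% of all genes did not). Col3a1, a fibrillar collagen chain (ENSMUSG00000026043, chr1:45311538-45349706), was at 125, 139, 46.9, 59.8 and 149.8 CPM without hormone and at 595, 1143, 320.4, 821 and 696 CPM with it. The lowest hormone mouse was above the highest mouse without hormone (6.88-fold, log2 2.78, SE 0.37, adjusted p = 9.73e-06, edgeR's quasi-likelihood test). Fbn1, the main protein of microfibrils, went from 15.9, 12.4, 14.4, 7.73 and 13.5 CPM to 54.8, 96.7, 35.4, 69.6 and 41.6 CPM (log2 2.22, SE 0.31, adjusted p = 1.36e-05). Vcan, a large proteoglycan, went from 3.23, 4.29, 2.87, 1.66 and 2.42 CPM to 28.0, 37.3, 24.7, 37.3 and 13.9 CPM (log2 3.28, SE 0.61, adjusted p = 0.000655). Vcan was called in all other alternative fits, but not with limma on log2(FPKM + 1) (adjusted p = 0.253). Col12a1, a collagen that sits on fibrils and is not in the list, rose by 2.42 on the log2 scale (SE 0.51, adjusted p = 0.00249). The members not called include Tnc (2.07, adjusted p = 0.0517), Fn1 (1.58, adjusted p = 0.0694), Lum (0.49), Eln (0.35), Mmp14 (0.15) and Dcn (0.09). Of the exonic bases of Fbn1, 20.1% overlap a gene on the other strand.

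The mean log2 CPM of the matrix list separated the groups fully, at 5.16, 4.98, 4.60, 4.38 and 5.11 without hormone and at 6.34, 6.67, 6.14, 6.68 and 6.05 with it. The count moved little: 18 to 20 genes rose with any 1 mouse left out and 20 with the correction for length and GC content. It was 22 with muscle RNA as a covariate and 14 without the 4 mice rich in muscle RNA. The length slope given above also separated the groups.

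**Figure D3:**
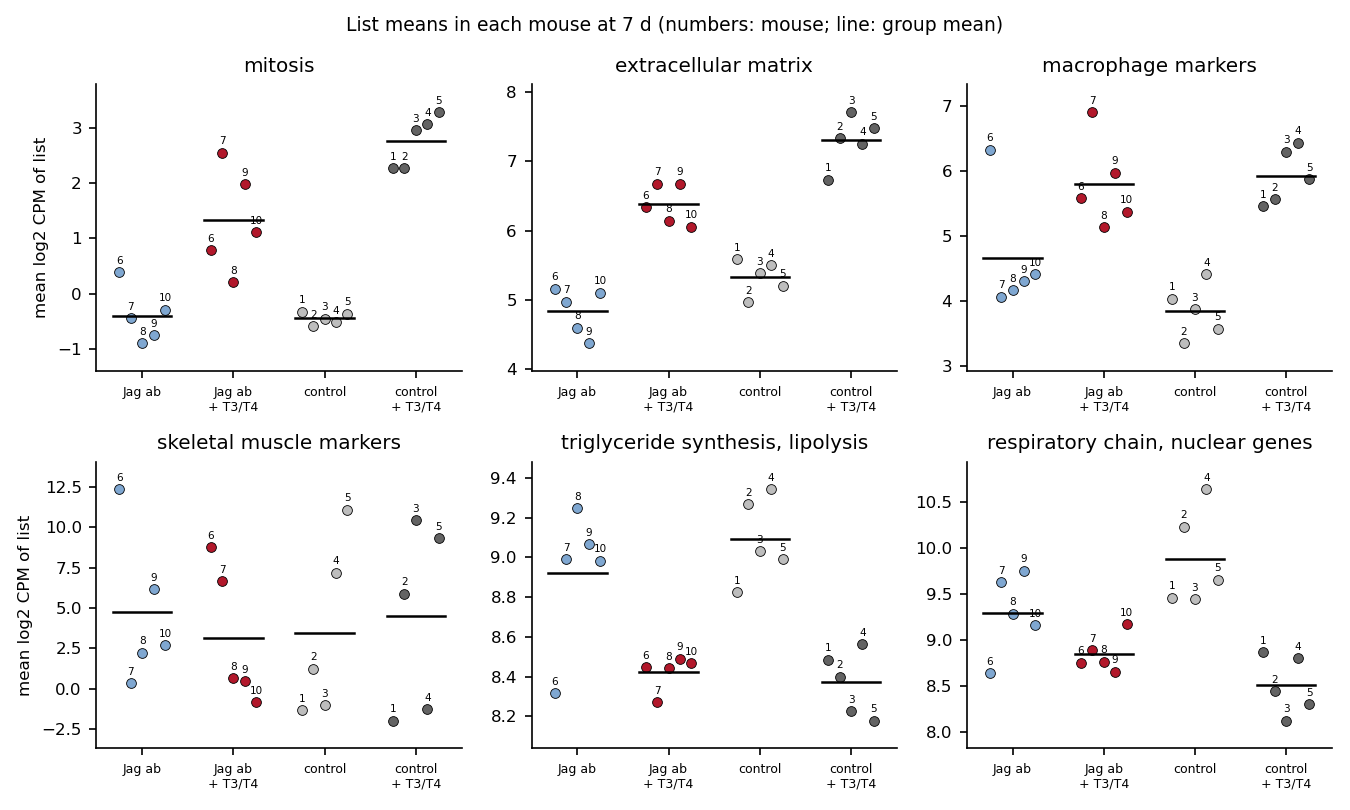
Mean log2 CPM over the members of 6 gene lists in each mouse (points carry the mouse number from the labels) in the 4 groups at 7 days. The matrix list separates hormone from no hormone under the Jag antibodies, the mitosis and macrophage lists overlap at mouse 6 without hormone, and muscle levels spread widely in every group.

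Markers of other cell types moved beside these lists, and their part in the results was not tested. Of 9 fibroblast and progenitor markers, 3 rose (Thy1, Cd34 and Pdgfra), against 4.29% of all genes that rose, and none fell. Thy1 went from 8.83, 11.9, 4.79, 6.56 and 6.3 CPM to 30.1, 49.1, 18.8, 27.3 and 26.7 CPM without overlap (log2 1.99, SE 0.40, adjusted p = 0.0014, edgeR's quasi-likelihood test), while Dcn and Lum, which are also fibroblast markers, were not called. Without the 4 mice rich in muscle RNA none of the 9 was called. The summed level of the list was 490.0 to 828 CPM without hormone and 543 to 1036 CPM with it. Of 12 macrophage markers, 3 rose (Mertk, Adgre1 and Lyz2, against 4.29% of all genes), all 12 were above zero, and the median was 0.94. The list's mean log2 CPM was 6.33 in mouse 6 without hormone and 4.07 to 4.41 in the other 4, and 5.14 to 6.91 in the hormone mice, with summed levels of 322 to 1357 CPM and 666 to 2597 CPM. No macrophage, fibroblast or adipocyte marker was at 0 in any library. The macrophage count became 8 without mouse 6 of the no-hormone group and 0 without mouse 7 or mouse 9 of that group, without hormone mouse 7, or without the 4 mice rich in muscle RNA. Ccr2, the receptor that draws monocytes into tissue, rose from 5.64, 4.06, 3.72, 4.35 and 3.73 CPM to 16.4, 39.9, 9.1, 19.3 and 17.6 CPM (log2 2.25, SE 0.59, adjusted p = 0.0137), the 1 called of 9 monocyte and neutrophil markers, and its call was lost without hormone mouse 7 (adjusted p = 0.0545). None of 12 lymphocyte, 8 skeletal muscle or 5 erythroid markers was called. S100b, counted as a Schwann cell marker but also made by adipocytes, fell from 78.0, 225, 297, 197 and 179 CPM to 46.5, 49.6, 38, 50.8 and 32.1 CPM (log2 -2.17, SE 0.30, adjusted p = 1.18e-05), and the other 5 Schwann markers were not called.

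Pdgfrb, a growth factor receptor of pericytes and fibroblasts, rose. It stood at 29.4, 23.1, 28.8, 18.9 and 32.8 CPM without hormone and at 51.6, 42.3, 82.4, 63.0 and 56.8 CPM with it, without overlap (log2 1.15, SE 0.17, adjusted p = 5.01e-05, edgeR's quasi-likelihood test). Of 8 pericyte markers, 2 rose (Pdgfrb and Notch3), and the median of the list was 0.18. Of 6 smooth muscle markers, 2 fell, namely Acta2 (log2 -1.72, adjusted p = 0.0251) and Tagln, with calls lost in 7 and 5 of 11 alternative fits. Of the exonic bases of Tagln, 62.4% overlap a gene on the other strand. Aplnr, the receptor for the peptide apelin on endothelial cells, rose from 4.87, 10.8, 14.6, 9.11 and 29.5 CPM to 35.6, 64.7, 42.6, 65.9 and 69.7 CPM (log2 2.02, SE 0.39, adjusted p = 0.00101). Aplnr and Angpt2, a factor that loosens vessels, were the 2 called of 15 angiogenic genes, and Cdh5, the endothelial cadherin, the 1 called of 12 endothelial markers. The Angpt2 and Cdh5 calls were lost in 7 and 6 of 10 fits with 1 mouse left out.

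Of 13 genes for Notch receptors, ligands and their modifiers, 3 rose (Notch2, Notch3 and Notch4) and 1 fell (Mfng, an enzyme that modifies Notch with sugars). Of all genes, 4.29% rose and 5.21% fell. Notch2 was at 32.3, 35.7, 32, 33.3 and 31.8 CPM without hormone and at 50.3, 50.2, 84.4, 71.6 and 68.9 CPM with it. Its groups did not overlap, and the mice without hormone were nearly alike (log2 0.98, SE 0.28, adjusted p = 0.021, edgeR's quasi-likelihood test). Notch3 went from 4.09, 5.12, 12.6, 5.59 and 10.5 CPM to 11, 10.7, 22.5, 20.3 and 16.7 CPM with overlap (log2 1.10, SE 0.35, adjusted p = 0.0428). The Mfng call was lost in 9 of 11 alternative fits and in 8 of 10 with 1 mouse left out. No gene of the list was called without the 4 mice rich in muscle RNA, and the number that rose with 1 mouse left out ran from 0 to 4. With muscle RNA as a covariate 2 rose and none fell. The genes of the blocked ligands were not called: Jag1 had a log2 fold change of 0.37 (95% interval -0.11 to 0.85) and Jag2 -0.01 (-0.63 to 0.62). None of the 5 tested Notch target genes was called, and Hes1, the best known of them, had 0.48 (95% interval -0.06 to 1.02, adjusted p = 0.241). With the length and GC offsets Hes1 passed the threshold (adjusted p = 0.0255), and with the replicate block added too (adjusted p = 0.0149).

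Further genes with large changes are given next. They were named among called genes whose groups do not overlap, so their separation was set by that choice. Ifi27l2a, a short gene induced by interferon (ENSMUSG00000079017, chr12:103442167-103443680), was at 1198, 771, 1112, 968 and 1177 CPM without hormone and at 95.8, 125, 32.7, 36.6 and 58.6 CPM with it. That is a 15-fold fall with wide separation (log2 -3.91, SE 0.53, adjusted p = 1.11e-05, edgeR's quasi-likelihood test), and Ifi27l2a was the 1 called gene among 27 tested for the interferon response, of which 22 were above zero. Nmb, the peptide neuromedin B, went from 12.1, 15.2, 19.8, 20.6 and 15.9 CPM to 2.89, 2.24, 2.06, 1.87 and 2.92 CPM, with little spread in either group (log2 -2.80, SE 0.36, adjusted p = 9.73e-06). Car3, a carbonic anhydrase abundant in adipocytes, fell by 2.37 (SE 0.37, adjusted p = 8.02e-05), and Gnmt, which consumes the methyl donor S-adenosylmethionine, fell by 2.26 (SE 0.42, adjusted p = 0.000607). Among genes that rose, Gfra1, a receptor for the glial cell line-derived neurotrophic factor (ENSMUSG00000025089, chr19:58235604-58455909), was at 3.1, 1.28, 2.51, 5.24 and 2.62 CPM without hormone and at 29.9, 26.1, 21.4, 7.18 and 40.3 CPM with it. Hormone mouse 9 was the lowest of its group yet above all mice without hormone (8.48-fold, log2 3.08, SE 0.43, adjusted p = 1.28e-05). Gfra4, a receptor of the same family, rose by 2.62 (SE 0.45, adjusted p = 0.000295), and Lamc3, a laminin chain of basement membranes, went from 1.9, 10.6, 8.66, 8.35 and 5.48 CPM to 29.2, 33.8, 60.4, 51.0 and 68.6 CPM (log2 2.80, SE 0.43, adjusted p = 7.05e-05).

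The response was set beside that of mice given the control antibody, in which the same hormone changed 7378 of 17079 genes (43.2%), and left no overlap between the groups in 5093 (29.8%). The comparisons share no mice. The control antibody libraries with and without hormone also differed from each other. Their length slope was 0.166 with hormone and -0.226 without, and their TMM factor 1.10 and 0.80. The mitochondrial share of counts was 12.8% and 20.0% (exact permutation test, two-sided, unadjusted p = 0.00794 for each of these measures). For 1 gene (0.00586% of those tested), Eva1a, the difference between the hormone effects passed the threshold (edgeR's quasi-likelihood test), while 2103 genes (12.3%) had an unadjusted p under 0.05 for it. The larger number called under the control antibody therefore does not by itself show which genes responded differently. Of the 285 genes called under the Jag antibodies but not under the control antibody, 88 had an unadjusted p under 0.05 for the difference. Choosing genes called under 1 antibody alone favours a low p for the difference, so this count is no support for one. Eva1a, the 1 gene that passed after adjustment, was called under both antibodies and is not among the 285. Among genes called in both, the median absolute log2 fold change was 1.05 under the Jag antibodies and 1.31 under the control antibody. The median SE was 0.29 and 0.30, and that of the difference 0.41.

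Eva1a encodes a membrane protein of lysosomes and the endoplasmic reticulum involved in autophagy (ENSMUSG00000035104, chr6:82041043-82093099). Under the Jag antibodies it was at 3.53, 5.62, 3.65, 2.83 and 4.51 CPM without hormone and at 6.92, 8.93, 7.61, 3.96 and 10.4 CPM with it. Under the control antibody it was at 2.99, 8.61, 7.86, 7.22 and 7.37 CPM without hormone and at 2.87, 2.93, 3.69, 2.75 and 2.17 CPM with it. It rose in the first pair of groups (log2 0.90, SE 0.27, adjusted p = 0.03, edgeR's quasi-likelihood test) and fell in the second (-1.23, adjusted p = 0.000618), with mouse 9 of the hormone group and mouse 1 of the control group inside the range of the other arm. The difference was 2.14 (SE 0.39, 95% interval 1.35 to 2.93, adjusted p = 0.0494). It did not pass in 6 alternative fits and in 17 of 20 fits with 1 mouse left out, where the adjusted p ran from 0.00374 to 0.237.

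Other named genes, such as Adrb3 and Gfra1, also had intervals for the difference that left out zero, and none of these differences held after adjustment. Several of them were named for a large change under the Jag antibodies. That choice favours a larger effect there, so the unadjusted intervals are no test of a difference. Adrb3 fell from 378 to 485 CPM to 98.6 to 247 CPM under the control antibody (log2 -1.22), so the difference from -3.40 was -2.17 (95% interval -3.20 to -1.14, adjusted p = 0.325, edgeR's quasi-likelihood test). Gfra1 rose by 1.03 under the control antibody (difference 2.06, 0.88 to 3.23, adjusted p = 0.374). Ttpa, a transfer protein for vitamin E, rose by 2.70 under the Jag antibodies and was not called under the control antibody (0.82, difference 1.88, 0.38 to 3.39, adjusted p = 0.374). Rxra had 0.26 under the control antibody (difference -0.82, -1.31 to -0.33, adjusted p = 0.374).

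**Figure D4:**
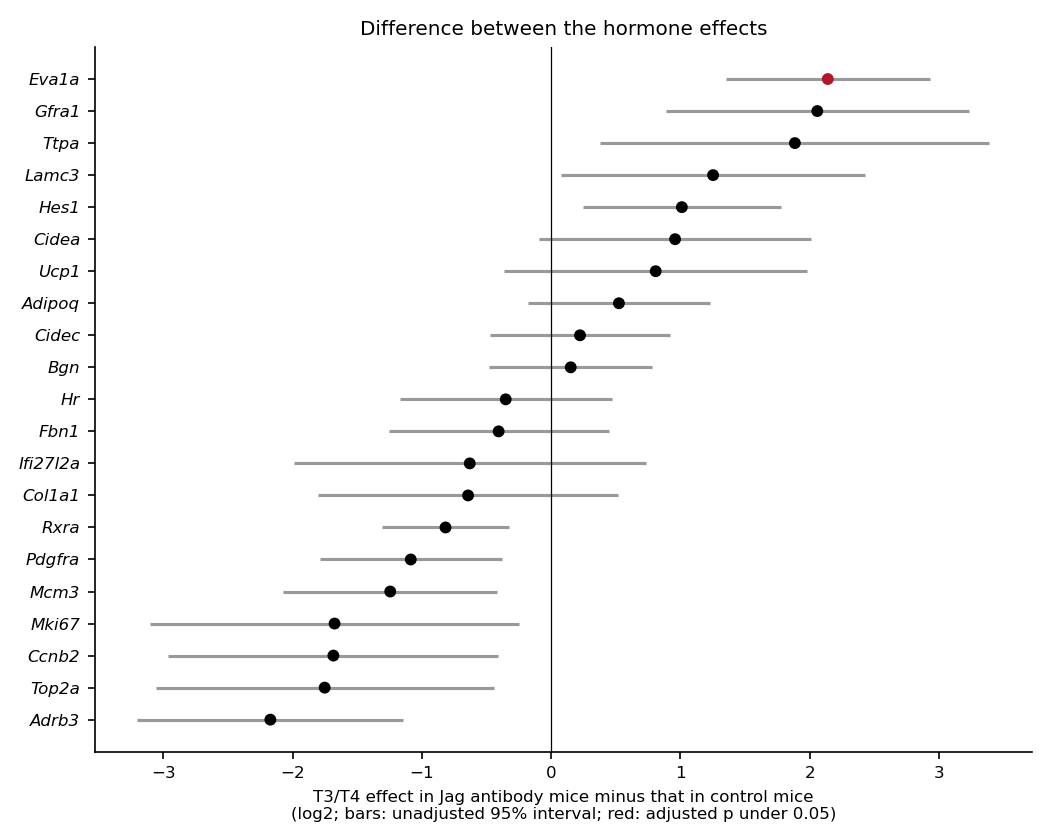
Difference between the hormone effect under the Jag antibodies and that under the control antibody for 21 named genes (log2 scale, Jag minus control, bars are unadjusted 95% intervals). Eva1a, in red at 2.14, is the 1 gene with an adjusted p under 0.05, and Adrb3 lies lowest at -2.17. Several of the genes were named for a large change under the Jag antibodies, which favours a difference.

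The gene lists were set side by side under both antibodies. The mitosis list had 24 of 26 genes called higher under the control antibody with a median of 3.49, against 23 and 2.03 under the Jag antibodies. For Mki67 the effects were 5.02 and 3.35 (difference -1.68, 95% interval -3.10 to -0.25, adjusted p = 0.374, edgeR's quasi-likelihood test), and for Top2a 4.85 and 3.10 (difference -1.75, -3.06 to -0.44, adjusted p = 0.374). The matrix list had 25 of 27 genes called and a median of 2.03 under the control antibody, against 19 and 1.53. The lists for triglyceride synthesis and lipolysis had 8 falls and medians of -0.56 and -0.58 in both. The nuclear respiratory chain list differed in its count: 37 of 40 genes fell under the control antibody (median -1.61) and 1 under the Jag antibodies (median -0.47). In that list 28 of 40 genes had an unadjusted p under 0.05 for the difference, against 12.3% of all genes, and none passed after adjustment. Its summed level was 50940.0 to 102716 CPM in control antibody mice without hormone and 23325 to 39743 CPM with it. In Jag antibody mice without hormone it was 28302 to 62998 CPM. Mouse 6 of that group, the richest in muscle RNA, had the lowest mean log2 CPM of the list (8.63, others 9.16 to 9.75). Whether the level without hormone takes part in these counts was not tested. Whether the length slope and mitochondrial share of the control antibody libraries, given above, take part in these counts was not tested. For Ucp1 the effects were -1.61 and -0.80 (difference 0.81, 95% interval -0.36 to 1.98), and for Cidea -2.05 and -1.09 (0.96, -0.09 to 2.01).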

How the data were processed

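Brown adipose tissue RNA of 40 mice (8 groups of 5) was sequenced as single reads of 50 bases, per the labels' protocols. The authors deposited a table of counts per gene, which is not normalized, and a table of FPKM values (fragments scaled to transcript length and library size), and the submitters' processing notes name GSNAP and limma. The genome build, counting rule and strand setting are not given in the sources used here. Gene symbols came with the files for 52403 of 52636 genes, and 52489 identifiers were found in GENCODE M21 (GRCm38), which gave positions and lengths. Counts were filtered with filterByExpr (17079 genes left), scaled by TMM and fitted over all 8 groups with edgeR 4.0.16 in R 4.3.3 (quasi-likelihood, robust). The contrasts were hormone minus no hormone under the Jag antibodies, the same under the control antibody, and their difference. Adjusted p-values are Benjamini-Hochberg over all genes, and the threshold was 0.05. Levels are TMM-scaled CPM (each count relative to its library's scaled total), log2 CPM used a prior count of 2, and 95% intervals use 32 residual degrees of freedom. CPM are not divided by length, so levels are compared within a gene only. Exact permutation tests were used for library measures (smallest p 0.00794 for 5 against 5).

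Genes named are up to 12 per direction with the largest change among called genes whose groups do not overlap and whose mean log2 CPM is at least 1, up to 5 called members per list by adjusted p, a set of fixed genes, and genes called for the difference. Some genes that this rule names are not reported here. Other list members given by value were chosen after their values were seen. The members and lists were chosen with earlier results of these data known. Alternatives were DESeq2 1.42.0, RLE scaling, no filter, fewer groups, limma 3.58.1 on log2(FPKM + 1), muscle RNA as a covariate, length and GC offsets, a replicate block and leaving out single mice. Leaving out the 4 Jag antibody mice whose mean log2 CPM of 8 muscle genes was over 6 was added after seeing the data. The fit was tested on simulated data with 200 changed genes. Nothing in the labels says that mice of a group came from separate cages or litters, so p-values measure the spread between these animals.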

Additional observations from a re-analysis of the deposited data

Results flagged for a closer look

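Of 80 groups of 5 mice examined for a mouse apart from the rest (highest or lowest gap over the range above 0.71), 2 were found, and chance alone gives about 4. Thra in hormone mouse 10 of the Jag antibody group stood at a log2 CPM of 6.579, with the nearest other mouse at 6.088. The other 4 hormone mice were at 61.2 to 67.9 CPM and the lowest mouse without hormone was at 72.1 CPM. Elovl3 in the same mouse stood at 2.859, with the nearest other mouse at 4.718, and without it the call of Elovl3 was lost (adjusted p = 0.0795, edgeR's quasi-likelihood test). Eva1a was the 1 gene whose hormone effect differed between the antibodies by a test of the difference itself, at 2.139 on the log2 scale (SE 0.39, adjusted p = 0.0494, edgeR's quasi-likelihood test). The highest of its values in these 20 mice was 10.4 CPM, and 3.07% of its exonic bases overlap a gene on the other strand.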

How the results depend on the processing

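The number of genes called for the hormone effect under the Jag antibodies, 1622, was 990 without a filter on low counts, 2663 with only the 2 groups compared, 2491 with the 4 groups at 7 days, and 392 without the 4 mice rich in muscle RNA, which leaves 3 mice against 3. It was 2225 with DESeq2, 1547 with RLE scaling, 2110 with length and GC offsets, 1219 with limma on log2(FPKM + 1) and 1643 with the muscle covariate. Leaving out 1 mouse gave 1002 to 1903, with the largest drops without mouse 7 (1002) or 9 (1045) of the no-hormone group and without hormone mouse 7 (1051), 10 (1075) or 8 (1076). The cause was not tested. The count under the control antibody stayed between 5986 and 7984. The genes behind these totals changed: with length and GC offsets, 5063 of the 7378 genes of the main fit were called again. Under the Jag antibodies, 1380 of the 1622 were called again with these offsets. For the difference, 1 gene became 9 with DESeq2, 36 with limma and 1 with RLE scaling. It became 0 with length and GC offsets (2016 genes at an unadjusted p under 0.05), the muscle covariate (2019), no filter (2816) and only the groups compared (2850), and 0 to 2 with 1 mouse left out (edgeR's quasi-likelihood test).

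With the replicate block, 1496 genes were called under the Jag antibodies and 7424 under the control antibody, and 1953 and 6733 with length and GC offsets added. None was called for the difference with the block (2061 at an unadjusted p under 0.05), nor with offsets added (1954). Deviations of same-numbered Jag antibody mice correlated at -0.36 to 0.67, and 1 of 5, number 6, correlated best with its own number. These 5 values cannot settle whether mice with the same number were related or handled together. With the mice paired by number, the length slope difference of 0.177 had an exact sign-flip p of 0.0625, the smallest 5 pairs allow.

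With 1 mouse left out, the hormone minus no-hormone difference ran from -3359010 to 310064 for total counts, from -2.09 to 0.0139 for the mitochondrial percent, from 0.0757 to 0.139 for the TMM factor and from -3.03 to 0.270 for the muscle level. Of 2255 values recomputed for named genes, 1901 kept their direction and side of the threshold, 325 lost a call, 12 gained one and 17 changed sign. Calls were lost for 48 values without the 4 mice rich in muscle RNA and for 3 with muscle RNA as a covariate. The sign changes were in 3 genes that were not called. Jag2, at -0.01, was 0.0106 with DESeq2, 0.0109 with RLE scaling, 0.000554 with limma, 0.0303 with the muscle covariate, 0.00789 without a filter, 0.00348 with the 2 groups, 0.0027 with the 4 groups, 0.0911 without the mice rich in muscle RNA, and -0.149 to 0.152 with 1 mouse left out. Dio2 ran from -0.496 to 0.474 with 1 mouse left out, and Fasn was 0.21 without the mice rich in muscle RNA. Precision is limited for genes with few counts: without hormone the summed level went down to 21.7 CPM over the mitosis list and was 7.08 to 10.1 CPM over the lymphocyte markers.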

Other observations

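Genes of steroid and foreign compound handling held further changes under the Jag antibodies. Among 9 tested genes that answer glucocorticoids or metals, 2 rose: Fkbp5, a chaperone partner of the glucocorticoid receptor, from 100.4, 15.3, 15.3, 12.2 and 24.9 CPM to 194, 167, 196, 115 and 154 CPM (log2 2.29, SE 0.59, adjusted p = 0.0128, edgeR's quasi-likelihood test), and Zbtb16, a transcription factor, from 45.2, 16.5, 19.9, 5.38 and 19.0 CPM to 80.8, 98.2, 70.8, 165 and 159.8 CPM (log2 2.43, SE 0.52, adjusted p = 0.00301). In both genes mouse 6 without hormone was the highest of its group, and the groups did not overlap. Without that mouse the log2 fold change of Fkbp5 was 3.28, and without the 4 mice rich in muscle RNA it was 3.07. Of 16 tested xenobiotic genes, 5 fell, against 5.21% of all genes that fell, and none rose. Pon1, a lactonase, went from 16.5, 98.4, 279, 87.7 and 95.4 CPM to 13.1, 8.41, 9.1, 8.58 and 12.2 CPM (log2 -3.49, adjusted p = 7.05e-05), and Ephx2, which opens lipid epoxides, from 469, 736, 877, 659 and 825 CPM to 371, 350.1, 300.2, 269 and 305 CPM (log2 -1.16, adjusted p = 5.1e-05). The count of 5 became 2 with the length and GC offsets and 2 without the 4 mice rich in muscle RNA.

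Genes of immediate response and stress were mostly not called. Of 23 immediate early genes, 2 fell, Jund and Fosb, and 52.6% of the exonic bases of Jund overlap a gene on the other strand. Fosb was at 23.5, 68.7, 46.6, 10.6 and 0.824 CPM without hormone and at 4.53, 0.647, 8.04, 1.03 and 0.716 CPM with it (log2 -3.34, SE 1.01, adjusted p = 0.0329, edgeR's quasi-likelihood test), with mouse 10 without hormone inside the range of the hormone mice. The Fosb call was lost in 4 of 11 alternative fits and in 6 of 10 with 1 mouse left out, and Jund, at -1.18, was -0.43 with the length and GC offsets (adjusted p = 0.284). Of 16 genes of the stress response, 1 fell: Phgdh, the first enzyme of serine synthesis (log2 -2.57, SE 0.64, adjusted p = 0.00902). None of 19 clock genes was called. The interferon list had 1 called gene of 27 under the Jag antibodies, with a median of 0.51, and 21 higher and 1 lower under the control antibody, with a median of 1.75. For 3 of its 27 genes the unadjusted p of the difference was under 0.05, and none was called.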
